A study of Vitis riparia with 12 samples.

Results

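The comparison described here is water deficit (WD) against well-watered control (C) in root tips of potted grapevines of Vitis riparia, a species native to North America. It used 6 of the 12 libraries of the study, 3 WD root and 3 C root, and all 29966 gene models in the root count table, of which 19545 passed a filter on low counts and were tested. The genes of interest were those that differed in the same direction in all 3 WD libraries and did not rest on WD root replicate 3, a library that stood apart from the other 5. By the definition given below 463 genes were consistent, and 4 of these still rested in size on replicate 3.

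Watering of WD vines was stopped, C vines were given 2 L daily, and roots were taken after 14 d. Each replicate combined 3 vines, and root and shoot were sampled from both treatments. The study asked how the root and shoot transcriptomes respond to the same drought. Reads of V. riparia were aligned to the genome of V. vinifera, and reads with more than 1 alignment were not counted. The sample descriptions call the material whole root tissue, whereas the extraction protocol names root tips of 5 cm and the study's account of the sampling a shorter length, and which was sequenced is not settled.

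A drying root tip makes and perceives abscisic acid (ABA), a hormone that is cut from carotenoids by 9-cis-epoxycarotenoid dioxygenases (NCED) and broken down by cytochrome P450 enzymes of the CYP707A family. In Arabidopsis, ABA bound to its receptors blocks type 2C protein phosphatases, which otherwise hold the response off, and many phosphatase genes are themselves switched on by ABA. Roots under drought are also known to build up protective sugars and desiccation proteins, to change their nitrogen and ion transport, and to lay down suberin and lignin in their walls.

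The 6 root libraries held between 14376065 and 22800079 reads on genes. Pearson correlations of log2 CPM, the read counts scaled to library size, between WD root replicate 3 and the other 5 libraries were 0.861 to 0.942, and those among the other 5 were 0.933 to 0.974. WD root replicate 1 correlated at 0.94 to 0.961 with the C libraries, 0.951 with WD root replicate 2 and 0.888 with WD root replicate 3. WD root replicate 2 correlated at 0.933 to 0.966 with the C libraries and 0.942 with WD root replicate 3. No library was a copy of another, since the chi-square per degree of freedom between replicates was 22.7 to 152. Of 45 genes of green shoot tissue, 42 were measured. With all 12 libraries scaled together, their summed level was 1800 to 2280 CPM in WD root, 1580 to 1990 in C root and 4900 to 20100 in shoot. That sum is no measure of green tissue in root, since its member NADP-dependent malic enzyme (VIT_11s0016g03210) averaged 978 CPM in WD root and 984 in C root. In shoot this gene averaged 620 CPM in WD and 340 in C. Of the 8 root genes set as markers, expansin 7 was at 0 or near 0 in shoot, and nitrate transporter 1:2 averaged 75.5 CPM in WD root, 183 in C root and under 0.5 in both shoot groups. The summed level of the 8 did not mark root, at 194 to 372 CPM in root against 431 to 3290 in shoot, because the nitrate transporter NTP3 averaged 2380 CPM in WD shoot. Libraries were made from tissue of many cell types, so fewer cells of a type and less RNA per cell cannot be told apart.

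No gene passed edgeR's quasi-likelihood test over the 6 root libraries, with Benjamini-Hochberg adjusted p under 0.05 in 0 of 19545 genes (0.00%). The smallest edgeR adjusted p was 0.147. For a single gene, 3 libraries against 3 cannot give an exact two-sided permutation p below 0.1. Before adjustment, 1134 genes (5.80% of those tested) had p under 0.05 and were higher in WD root, and 637 (3.26%) were lower. DESeq2 called 441 genes (2.26%), 277 of them higher in WD root, and limma voom with a weight for each library called 221. The differences below are therefore given as levels, and each statement about single genes rests on their values in the 6 libraries. In 1599 genes (8.18%) every WD library was above every C library, and in 1358 (6.95%) every WD library was below.

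A gene was taken as consistent where WD and C libraries did not overlap, the unadjusted p was under 0.05, and the difference was at least 2-fold in the same direction over all 6 libraries and again with each of the 6 libraries left out in turn. Of the 463 consistent genes, 305 were higher in WD root (1.56% of those tested) and 158 were lower (0.808%). DESeq2 called 301 of the 463. In 165 of them the 3 WD libraries also lay within 2-fold of each other, 99 higher and 66 lower. The class was made from this contrast and is a description. Among annotated genes above the median level, the closest ones outside it were a GIGANTEA gene (VIT_18s0157g00020), whose smallest log2 difference over the 7 fits was 0.99, a strictosidine synthase and a leucine-rich repeat gene, and the closest inside were a carboxylesterase, sugar transporter 13 and a FAD-linked oxidase.

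The 3 WD libraries did not respond to the same extent. In the 305 consistently higher genes the median log2 difference from the mean of the C libraries was 1.21 in WD root replicate 1, 1.40 in replicate 2 and 2.13 in replicate 3. In the 158 consistently lower genes it was -1.19, -1.40 and -1.78. Replicate 3 was the highest of the 3 WD libraries in 220 of the 305 and the lowest in 92 of the 158.

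A gene was taken as carried by a library where a difference of at least 2-fold over 6 libraries shrank to less than 0.5 of its log2 value, or turned, once that library was left out. WD root replicate 3 carried 221 genes, 215 of them higher in WD (1.10% of genes tested) and 6 lower (0.0307%). WD root replicate 1 carried 137 genes, all 137 higher (0.701%). The other 4 libraries carried 2 to 34 genes each. The fold change compares group means, so a library can carry a difference through a high value far more easily than through a low one. Both definitions took 4 genes in common for replicate 3 and 4 for replicate 1.

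**Figure D1:**
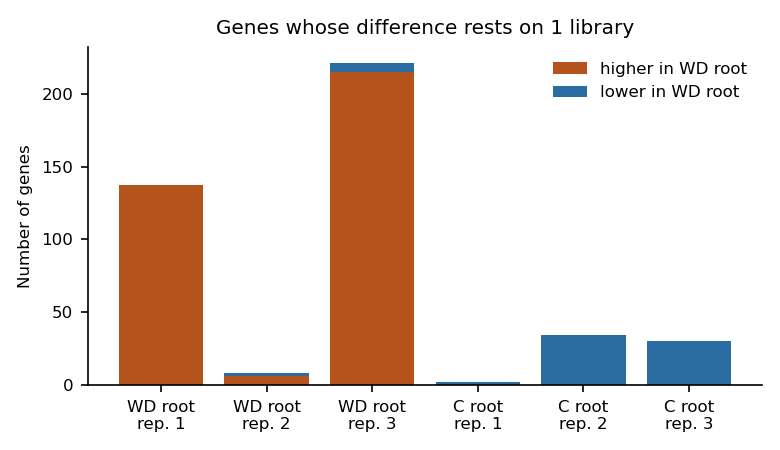
Number of genes whose difference rests on 1 library, for each of the 6 root libraries on the x axis, split into genes higher (brown) and lower (blue) in WD root. WD root replicate 3 (221 genes) and WD root replicate 1 (137) stand above the other 4 libraries (2 to 34).

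**Figure D2:**
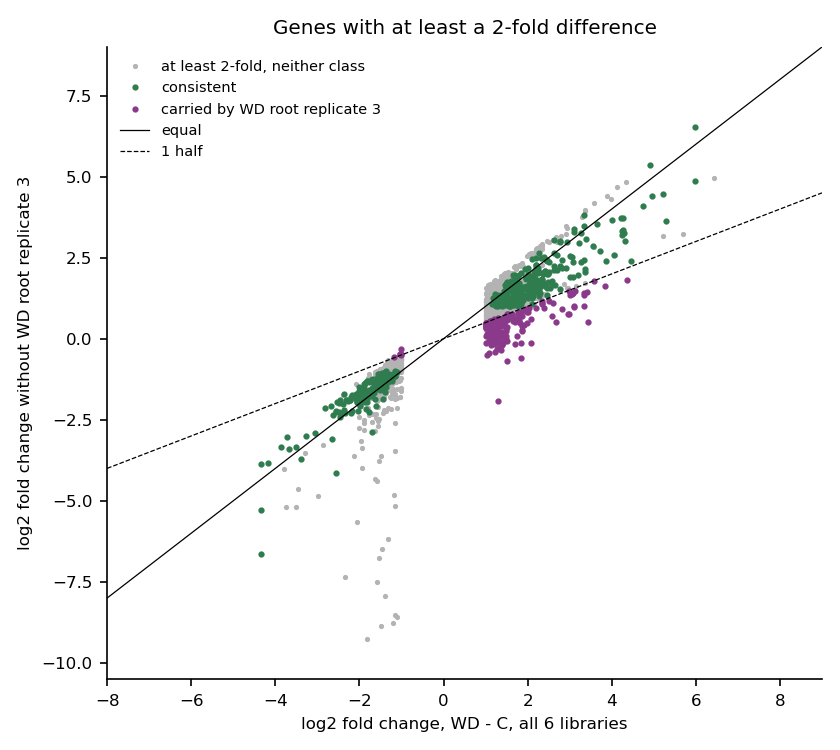
log2 fold change of WD over C root with all 6 libraries (x axis) and without WD root replicate 3 (y axis) for the 1521 genes that differed at least 2-fold. Green points are consistent genes and purple points genes carried by WD root replicate 3, which by definition lie between the dashed line of 0.5 times the value and the x axis or beyond it. The 4 genes in both classes are drawn in purple.

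The 12 consistently higher genes of larger level with the largest differences encoded transporters, a sugar enzyme, a wax enzyme, ABA genes and proteins of membranes and the secretory pathway. A nitrate transporter gene (VIT_11s0016g05170, chromosome 11 from 4444762 to 4448289 in the PN40024 assembly of V. vinifera) was at 32.5, 72.1 and 189 CPM in WD root replicates 1 to 3 and at 5.59, 3.80 and 5.89 CPM in C root. Every WD library was above every control, and the log2 difference was 4.27 ± 0.68 (SE, n = 3 against 3) with all libraries and 3.36 without replicate 3. Its edgeR adjusted p was 0.289.

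Raffinose synthase (VIT_14s0066g00810, chromosome 14 from 27284622 to 27287761), which adds galactose to sucrose to make the protective sugar raffinose, had the most even difference of the 12. It was at 167, 211 and 210 CPM in WD root and at 35.1, 42.3 and 29.1 CPM in C root. The WD mean of 196 ± 25.3 CPM (SD, n = 3) exceeded the C mean of 35.5 ± 6.56, and the log2 difference of 2.46 ± 0.20 stayed between 2.33 and 2.61 whichever library was left out. It had the smallest adjusted p by edgeR, 0.147, and an adjusted p of 1.46e-23 by DESeq2.

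Chloride channel protein B (VIT_14s0068g02190) was also within 2-fold across the WD libraries, at 152, 119 and 160 CPM in WD root and 48.0, 23.5 and 25.7 CPM in C root. The WD libraries also lay within 2-fold for a gene annotated as Spg1p (VIT_12s0059g02280), a small GTPase that triggers septum formation in fission yeast, with 62.1, 104 and 97.1 CPM in WD root against 19.0, 25.8 and 10.4 CPM in C root. Every WD library was above every control in both genes, and the controls spread over more than 2-fold. Their log2 differences were 2.15 ± 0.31 and 2.25 ± 0.37.

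Wax synthase (VIT_15s0046g00490), an enzyme that joins fatty acids and alcohols to wax esters, was highest in WD root replicate 1. It was at 108, 45.7 and 73.6 CPM in WD root and at 14.6, 6.42 and 15.9 CPM in C root, and the log2 difference of 2.62 ± 0.45 was 2.65 without replicate 3. An O-methyltransferase annotated as acting on isoflavones or orcinol (VIT_10s0003g00470) was at 106, 57.5 and 196 CPM in WD root and 27.2, 13.5 and 2.33 CPM in C root. Here the spread within C root was more than 10-fold.

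The other genes of the 12, with NCED3, ABI1 and the phosphatase DBP described below, were lowest in WD root replicate 1 and highest in replicate 3, without overlap with C root. Protein disulfide isomerase (VIT_18s0001g01030), which forms disulfide bonds in secreted proteins, was at 78.0, 187 and 386 CPM in WD root and at 26.2, 35.6 and 15.0 CPM in C root. Remorin (VIT_08s0007g08280), a protein of plasma membrane domains, was at 75.3, 184 and 292 CPM against 27.2, 48.7 and 13.6 CPM. A pentatricopeptide repeat gene (VIT_05s0029g00240), of a family that processes organelle RNA, was at 113, 150 and 250 CPM against 50.6, 32.3 and 29.9 CPM. Without replicate 3 their log2 differences were 2.37, 2.12 and 1.81.

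**Figure D3:**
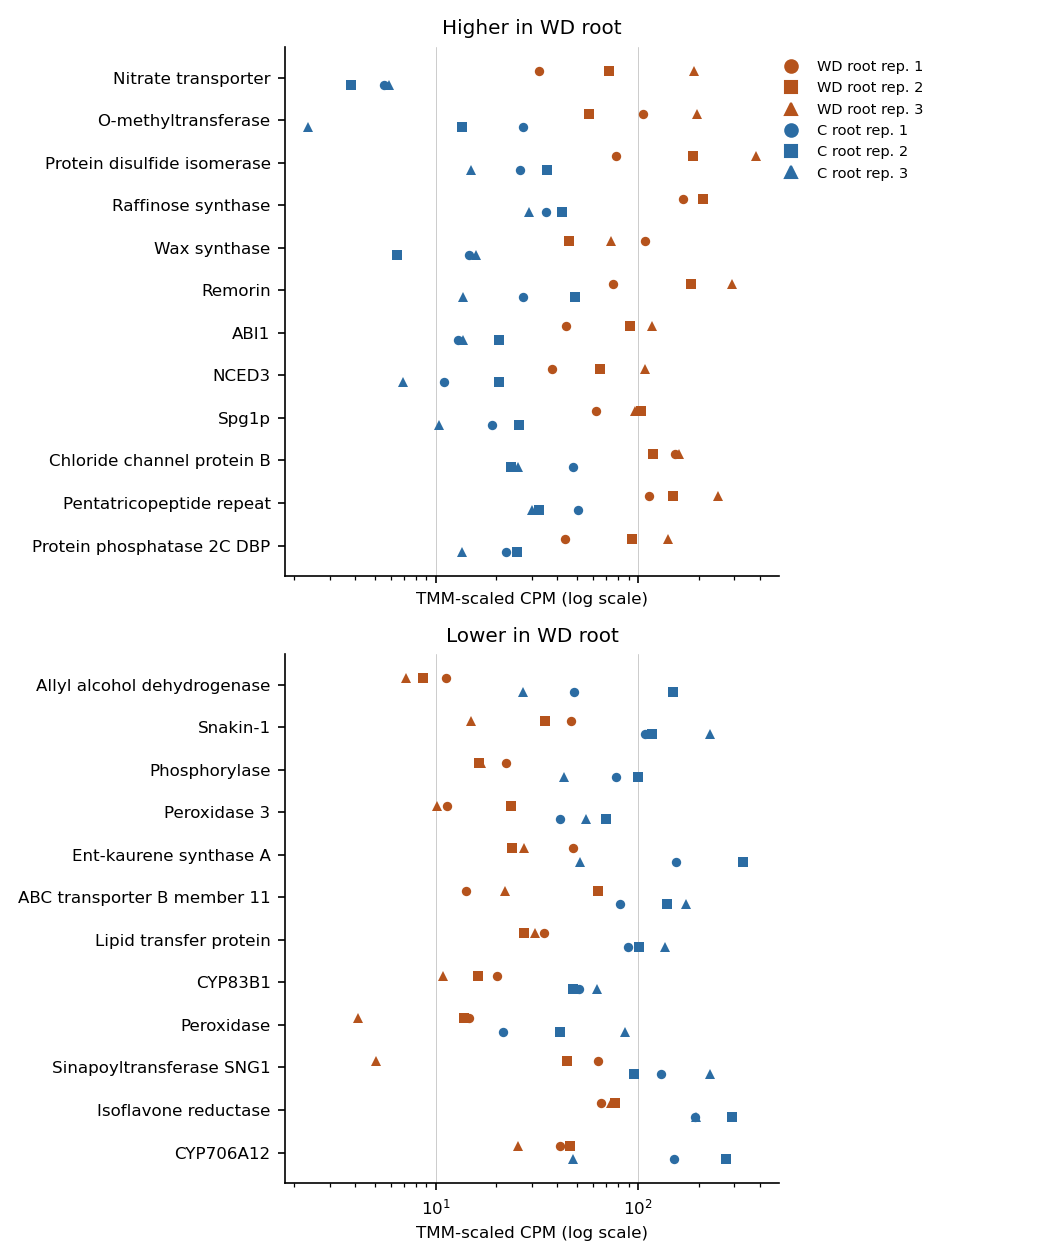
TMM-scaled CPM (log scale) in each of the 6 root libraries for the 12 consistently higher (top) and 12 consistently lower (bottom) genes. They are those with the largest differences among annotated genes at or above the median level. Marker shape gives the replicate number, brown is WD and blue is C, and the 2 colours do not overlap for any of the 24 genes. Raffinose synthase, at 167 to 211 CPM in WD root, shows the least spread of the upper 12.

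The 12 consistently lower genes included enzymes of secondary metabolism, a lipid transfer protein, 2 peroxidases and a transporter. The most even were a lipid transfer protein of the protease inhibitor and seed storage family (VIT_03s0017g02260), which binds lipids outside the cell, and isoflavone reductase (VIT_07s0031g03070). The lipid transfer protein was at 34.4, 27.4 and 31.0 CPM in WD root and at 89.2, 101 and 137 CPM in C root. Isoflavone reductase was at 65.5, 77.1 and 74.0 CPM in WD root and at 191, 293 and 194 CPM in C root. Their log2 differences of -1.82 ± 0.21 and -1.65 ± 0.22 moved to -1.82 and -1.66 without WD root replicate 3, and the edgeR adjusted p were 0.191 and 0.227.

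Allyl alcohol dehydrogenase (VIT_11s0016g05230) had the largest difference of the 12, -3.05 ± 0.65 on the log2 scale. It was at 11.3, 8.65 and 7.15 CPM in WD root, a narrow range, and at 48.3, 149 and 27.1 CPM in C root. Ent-kaurene synthase A (VIT_07s0151g01040), an early enzyme of gibberellin synthesis, was at 47.8, 23.8 and 27.5 CPM in WD root and at 155, 331 and 51.9 CPM in C root. The highest WD library lay just under the lowest C library, C root replicate 3. The same library was the lowest control for CYP706A12 (VIT_04s0008g01100), with 41.1, 46.0 and 25.6 CPM in WD root and 151, 274 and 47.6 CPM in C root.

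Snakin-1 (VIT_07s0129g00580), a small antimicrobial peptide, was at 46.9, 34.8 and 15.0 CPM in WD root and at 109, 117 and 228 CPM in C root. CYP83B1 (VIT_18s0001g13820), which in Arabidopsis takes part in indole glucosinolate synthesis, was at 20.2, 16.3 and 10.9 CPM against 51.4, 47.8 and 63.1 CPM. A phosphorylase (VIT_04s0008g03590) was at 22.3, 16.4 and 16.7 CPM against 77.7, 99.9 and 43.0 CPM. Their groups were well apart, with log2 differences of -2.23 ± 0.49, -1.78 ± 0.26 and -1.99 ± 0.33.

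ABC transporter B member 11 (VIT_11s0016g03160), whose Arabidopsis relatives move auxin, was at 14.1, 63.4 and 22.0 CPM in WD root and at 81.3, 140 and 174 CPM in C root. The sinapoyltransferase SNG1 (VIT_03s0091g01200), which makes sinapoylmalate in Arabidopsis, was at 63.5, 44.5 and 5.05 CPM against 130, 95.9 and 228 CPM, and its low value in replicate 3 took part in a log2 difference of -2.01 ± 0.83 that was -1.49 without that library. DESeq2 called 11 of the 12 lower genes and all 12 of the higher ones, and SNG1 was the exception with a DESeq2 adjusted p of 0.165.

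Among the genes of ABA synthesis, 4 in the lists were annotated as NCED, and the 2 that passed the filter on low counts were consistently higher. The other 2 (VIT_02s0087g00910 and VIT_02s0087g00930) had 0 to 26 reads in a root library and were not tested. NCED3 (VIT_19s0093g00550, chromosome 19 from 17645347 to 17647649) was at 37.5, 65.3 and 108 CPM in WD root and at 11.0, 20.5 and 6.93 CPM in C root, and WD root replicate 1 was above the highest control. NCED2 (VIT_10s0003g03750) was at 15.9, 24.9 and 35.9 CPM in WD root and at 7.94, 12.5 and 8.10 CPM in C root. Without replicate 3 their log2 differences were 2.00 and 1.10, beside 2.45 ± 0.53 and 1.42 ± 0.35 with all libraries. The study measured NCED3 and the phosphatase ABI1, among other genes, by RT-PCR. It states that PCR did not detect the significant rise of ABI1 that it found by RNA-seq. Its chart of PCR fold changes nevertheless shows both NCED3 and ABI1 higher in WD root than in C root. The PCR test described in its methods compared root with shoot, not WD with C. The study also reports a strong correlation between the fold changes by PCR and by RNA-seq. The primers of both genes are printed here because they mark the transcripts on which the ABA results rest. Each is in lower case and 5′ to 3′ as in the study's primer list.
NCED3 forward: tgcagaggacgagagtgtaaaggga
NCED3 reverse: aaagctacgagctggtccctcaaa
ABI1 forward: atggtggctctcaggtggctaaat
ABI1 reverse: tcataaccacattgtcggccctct

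Genes for the steps before NCED differed in how evenly they were higher. Beta-carotene hydroxylase (VIT_16s0050g01090), which makes zeaxanthin, was at 32.2, 51.5 and 172 CPM in WD root and at 21.1, 23.3 and 14.8 CPM in C root, so that without replicate 3 the log2 difference of 2.11 ± 0.63 was 1.08. Beta-carotene 3-hydroxylase 1 (VIT_02s0025g00240) was carried by replicate 3, at 20.5, 37.6 and 67.5 CPM in WD root and 19.2, 26.4 and 15.9 CPM in C root. A zeaxanthin epoxidase (VIT_00s0533g00020), the enzyme of the step before the NCED substrates, was consistently higher at a level under 1 CPM in all 6 libraries.

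The 2 other genes of ABA synthesis, ABA1 (VIT_07s0031g00620) and ABA3 (VIT_19s0027g01090), which encode in Arabidopsis zeaxanthin epoxidase and a molybdenum cofactor sulfurase, overlapped between the groups. ABA1 was at 28.0, 31.7 and 38.3 CPM in WD root and 23.1, 31.7 and 18.0 CPM in C root. ABA3 was at 9.27, 13.4 and 24.1 CPM in WD root and 13.4, 15.9 and 9.91 CPM in C root, and its log2 difference of 0.25 ± 0.38 was -0.21 without replicate 3.

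The 2 genes annotated as ABA 8'-hydroxylase, which breaks ABA down, did not share a direction. One (VIT_02s0087g00710) was at 49.0, 44.5 and 47.3 CPM in WD root, all below the 54.4, 63.5 and 144 CPM of C root, with a log2 difference of -0.90 ± 0.37. The other (VIT_03s0063g00380) was carried by replicate 3, at 0.724, 4.62 and 32.8 CPM in WD root and 1.33, 1.13 and 0.130 CPM in C root, and WD root replicate 1 lay between the controls. A further gene (VIT_06s0004g05050) is annotated as ent-kaurenoic acid oxidase 1 and was not in the ABA list, but the study groups it with the ABA 8'-hydroxylases. It was added after its values were seen. It was at 11.4, 11.8 and 11.6 CPM in WD root and at 0.639, 1.59 and 1.36 CPM in C root, the WD libraries were nearly equal, and the log2 difference was 3.27 ± 0.35, the same without replicate 3. Of the 9 measured genes of ABA synthesis and breakdown, 6 came from the study's list of root genes called as changed, which was chosen on these libraries and is no independent evidence of direction. Of those 6, 4 were higher and 1 lower at an unadjusted p under 0.05, and the median log2 difference was 1.77, or 1.09 without replicate 3, beside 0.01 over all genes tested. Every root list below was chosen in the same way. Over all genes tested, 5.80% were higher and 3.26% lower at that limit, and 1.56% were consistently higher and 0.808% lower.

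In ABA signaling, the phosphatase genes named here were higher. The receptor gene PYL4 was lower, and a gene annotated as a GCR2-like ABA receptor was higher. ABI1 (VIT_11s0016g03180, chromosome 11 from 2548102 to 2561412) was at 44.2, 91.2 and 118 CPM in WD root and at 12.9, 20.7 and 13.6 CPM in C root. The phosphatase gene DBP (VIT_06s0004g05460) was at 43.9, 94.0 and 141 CPM in WD root and at 22.2, 25.2 and 13.5 CPM in C root. Their log2 differences were 2.42 ± 0.40 and 2.19 ± 0.46, and without replicate 3 they were 2.1 and 1.76. PP2CA (VIT_13s0019g02200) lay just outside the consistent class. It was at 76.0, 104 and 104 CPM in WD root and at 42.8, 54.1 and 39.1 CPM in C root, an even difference of 1.06 ± 0.20 on the log2 scale.

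The receptor gene PYL4 (VIT_13s0067g01940) was at 2.25, 0.698 and 0.421 CPM in WD root and at 4, 6.52 and 5.57 CPM in C root. The 2 groups did not overlap, and the log2 difference was -2.30 ± 0.62. The study reports receptor genes of the PYR/PYL/RCAR family as lower in WD root. A gene annotated as a GCR2-like ABA receptor (VIT_07s0191g00080), named after its values were seen, was consistently higher, with a log2 difference of 1.3. Of the 20 root-list genes of ABA signaling, 14 were higher and 4 lower at an unadjusted p under 0.05, 5 were consistently higher and 1 lower, and 2 were carried by replicate 3. Of 9 other ABA signaling genes, taken from the study's other tables, 2 were higher and 0 lower at that limit and the median log2 difference was 0.29.

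The sugar genes of the raffinose and trehalose pathways were the list with the largest median. All 13 tested root-list members were higher at an unadjusted p under 0.05, 7 were consistent, 1 was carried by replicate 3, and the median log2 difference was 2.97, or 1.87 without replicate 3. The study had chosen these 13 on the same libraries, and of 3 members from its other lists 0 passed in either direction, with a median of -0.16.

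Galactinol synthase makes the galactose donor for raffinose, and 3 neighbouring genes of it on chromosome 14 were consistently higher. VIT_14s0060g00810 was at 4.20, 28.2 and 28.8 CPM in WD root and at 1.60, 1.83 and 0.324 CPM in C root. VIT_14s0060g00790 was at 3.19, 12.9 and 10.1 CPM against 0.479, 1.45 and 0.0648 CPM. VIT_14s0060g00760 was at 1.09, 8.59 and 8.12 CPM against 0.479, 1.03 and 0.130 CPM. In all 3 genes WD root replicates 2 and 3 were close together and replicate 1 was the lowest of the WD libraries. In VIT_14s0060g00760 that library barely cleared the highest control. Since reads with more than 1 alignment were left out, the split between such similar neighbours is uncertain.

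The enzyme annotated as galactinol-raffinose galactosyltransferase (VIT_05s0077g00840), which would extend raffinose to stachyose, was at 21.1, 50.3 and 23.9 CPM in WD root and at 12.6, 8.91 and 9.85 CPM in C root. It was highest in replicate 2, and the log2 difference was 1.60 ± 0.37. The 2 trehalose 6-phosphate synthase genes, whose product regulates sugar use, were lowest in C root replicate 3. VIT_17s0000g08010 was at 198, 70.3 and 159 CPM in WD root and 56.0, 37.0 and 16.5 CPM in C root, and VIT_01s0026g00280 was at 277, 236 and 366 CPM against 139, 120 and 77.5 CPM. Their log2 differences were 1.96 ± 0.54 and 1.39 ± 0.28.

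**Figure D4:**
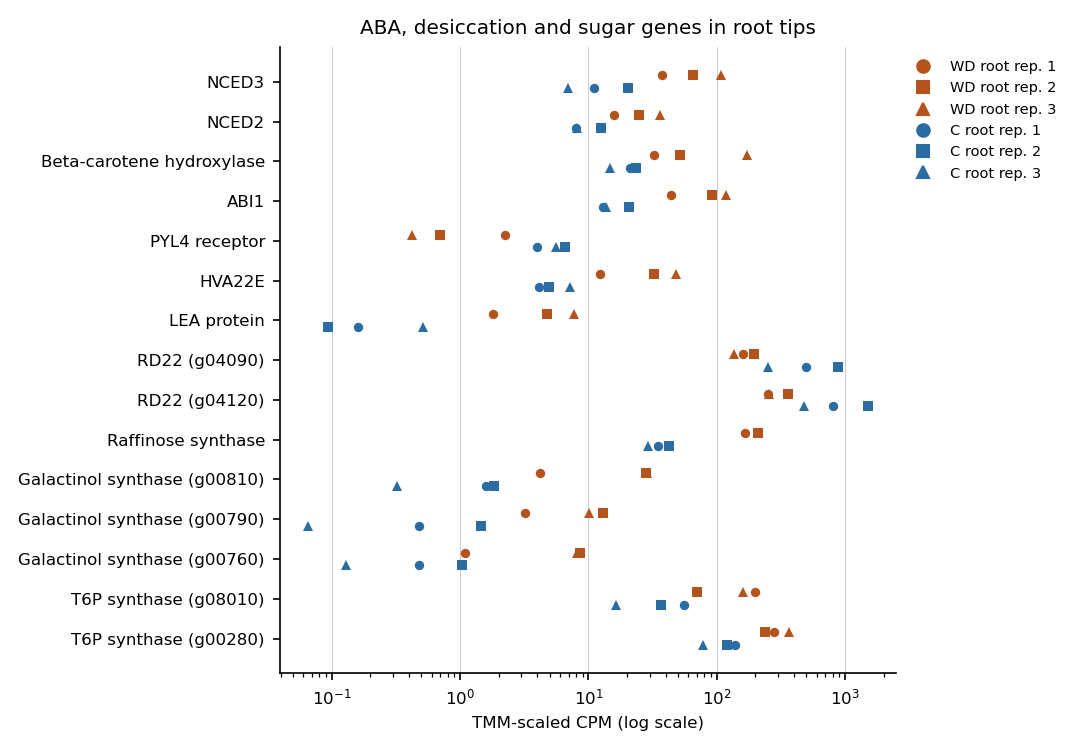
TMM-scaled CPM (log scale) of consistent genes of ABA synthesis and signaling, desiccation proteins and sugar enzymes in each of the 6 root libraries, with WD in brown and C in blue. The receptor PYL4 and both RD22 genes lie to the left in WD root, and the other 12 genes lie to the right.

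Desiccation proteins went both ways. A late embryogenesis abundant protein gene (VIT_08s0007g04240), of a family that protects dry cells, was at 1.81, 4.78 and 7.78 CPM in WD root and at 0.16, 0.0938 and 0.518 CPM in C root. HVA22E (VIT_17s0000g01080), related to an ABA-induced barley protein, was at 12.4, 32.2 and 48.0 CPM against 4.10, 4.97 and 7.13 CPM. RARE-cold-inducible 2A (VIT_13s0019g03650), a small membrane protein, was at 34.8, 59.1 and 67.5 CPM against 16.7, 15.3 and 6.67 CPM. The 3 genes had log2 differences of 4.27 ± 0.79, 2.52 ± 0.51 and 2.06 ± 0.41.

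The 2 neighbouring RD22 genes, which belong to a family named for its induction by drying in Arabidopsis, were lower in WD root. VIT_04s0008g04090 was at 161, 194 and 137 CPM in WD root and at 497, 883 and 253 CPM in C root. VIT_04s0008g04120 was at 253, 360 and 255 CPM in WD root and at 801, 1500 and 477 CPM in C root. The WD libraries were close to each other in both genes and the controls spread over more than 3-fold. Of the 14 desiccation genes tested from the root list, 6 were higher and 4 lower at an unadjusted p under 0.05, 3 were consistently higher and 2 lower, and the median log2 difference was 0.99, or 0.51 without replicate 3. With at least 10 counts required in every root library that median was -0.60.

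Of 15 tested root-list genes of nitrogen uptake and assimilation, 6 were higher and 4 lower at an unadjusted p under 0.05. These shares stand beside 5.80% and 3.26% of all genes tested. Consistent members were 4 higher and 2 lower, and 1 of the 4, nitrilase 4B gene VIT_02s0033g00770, rested in size on WD root replicate 1. The median log2 difference of the list was 1.45, but 0.08 without WD root replicate 1 and 0 with voom weights. The nitrate transporter NTP3 (VIT_12s0059g01240) was at 5.00, 17.6 and 85.7 CPM in WD root and at 1.23, 0.844 and 0.648 CPM in C root. All 3 WD libraries were above the controls but spread over 17.2-fold, and without replicate 3 the log2 difference of 5.30 ± 1.12 was 3.63. Nitrite reductase (VIT_03s0063g00370), which turns nitrite into ammonium, was at 122, 49.9 and 82.6 CPM against 37.5, 39.3 and 15.9 CPM. Ammonium transporter 2 (VIT_07s0031g02950) was lower, at 1.74, 0.591 and 0.925 CPM in WD root and 2.61, 8.21 and 2.40 CPM in C root. Nitrate transporter 1:2 (VIT_18s0001g11280), which was under 0.5 CPM in every shoot library, was at 112, 71.7 and 60.3 CPM in WD root and 164, 296 and 126 CPM in C root, without overlap, and lay outside the consistent class at a smallest log2 difference of 0.84.

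The potassium-sodium symporter HKT1 (VIT_11s0103g00130), which in Arabidopsis keeps sodium out of shoots, was at 5.58, 8 and 15.3 CPM in WD root and at 1.60, 2.49 and 1.62 CPM in C root. The low affinity sulphate transporter (VIT_18s0001g04890) was at 14.4, 14.7 and 26.8 CPM against 6.50, 2.72 and 1.68 CPM. The potassium channel AKT2/3 (VIT_12s0034g02240), of a phloem-expressed type in Arabidopsis, was at 14.1, 23.7 and 56.4 CPM against 11.2, 9.99 and 5.38 CPM. Together with chloride channel protein B, the exchanger CHX19 (VIT_05s0020g01150) and sulfate transporter 3.5 they made up the 6 consistent genes, all higher, among 20 tested root-list genes of water and ion transport. The study had chosen these 20 on the same libraries. Of them, 15 were higher and 1 lower at an unadjusted p under 0.05, beside 5.80% and 3.26% of all genes tested. The median log2 difference was 1.14, or 1.17 without replicate 3. Of 4 such genes tested from the study's other tables, 0 passed in either direction, with a median of 0.42.

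Transcription factor genes formed the largest list, with 65 tested root-list members, which the study had chosen on these libraries. Of these, 34 were higher and 11 lower at an unadjusted p under 0.05, beside 5.80% and 3.26% of all genes tested. Consistent members were 15 higher and 3 lower, beside 1.56% and 0.808% of all genes tested, and replicate 3 carried 6. The homeodomain-leucine zipper gene HB-7 (VIT_15s0048g02870), which answers to ABA and water deficit in Arabidopsis, was at 74.1, 205 and 355 CPM in WD root and at 47.9, 57.2 and 36.0 CPM in C root. Its relative ATHB-12 (VIT_02s0025g02590) was at 9.06, 26.2 and 35.1 CPM against 8.95, 5.91 and 3.04 CPM, so that WD root replicate 1 barely cleared the highest control. Of 73 transcription factor genes from the other tables, 10 were higher and 0 lower at that limit, with a median log2 difference of 0.42 beside 1.21 in the root list.

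Other regulators were even across the WD libraries. NAC domain protein 90 (VIT_06s0080g00780) was at 7.61, 7.14 and 9.93 CPM in WD root and at 1.28, 3.28 and 1.43 CPM in C root. Heat shock transcription factor C1 (VIT_11s0016g03940) was at 12.7, 15.3 and 14.3 CPM against 3.89, 7.08 and 2.27 CPM. A gene annotated as dehydration-responsive element-binding protein (VIT_13s0067g01960), of the family that switches on drought genes, was at 10.4, 9.99 and 15.2 CPM against 4.16, 4.60 and 2.53 CPM. NAC domain protein 19 (VIT_19s0014g03290) was less even, at 30.2, 49.3 and 94.2 CPM against 14.6, 19.5 and 6.35 CPM. An ethylene-responsive element binding factor (VIT_16s0013g00890) was lower, at 7.75, 7.89 and 4.21 CPM in WD root and 21.9, 26.6 and 25.6 CPM in C root.

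Among hormone genes other than ABA, consistent cytokinin genes were 3 of 13 tested, all higher. AHP4 (VIT_11s0016g03170), a histidine phosphotransfer protein that in Arabidopsis dampens the cytokinin signal, was at 11.2, 26.2 and 35.3 CPM in WD root and at 4.10, 5.30 and 4.15 CPM in C root. A cis-zeatin O-glucosyltransferase (VIT_18s0001g06120), which stores cytokinin in an inactive form, was at 5.14, 4.35 and 3.83 CPM against 1.33, 1.45 and 1.23 CPM. In the auxin list, 5 of 27 tested genes were consistently higher and 2 lower, beside 1.56% and 0.808% of all genes tested, while replicate 3 carried 6 and WD root replicate 1 carried 3. The 5 included nitrilase 4B gene VIT_02s0033g00770, which rested in size on WD root replicate 1. These hormone lists too were chosen by the study on these libraries. An indole-3-acetate beta-glucosyltransferase (VIT_03s0180g00320), which conjugates auxin, was at 90.3, 70.0 and 73.4 CPM in WD root and at 192, 187 and 232 CPM in C root, with a log2 difference of -1.39 ± 0.18 that was -1.35 without replicate 3. Ethylene and AP2/ERF genes numbered 27 tested, 4 consistently higher and 2 lower, and circadian genes 11, with 3 higher and 0 lower, among them Constans-like 3 (VIT_11s0052g01800) at 56.1, 63.1 and 90.9 CPM against 32.4, 35.6 and 20.9 CPM.

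Cell wall genes were split. Expansin 7 (VIT_02s0025g04700), which loosens walls in growing root cells, was at 32.5, 15.4 and 13.7 CPM in WD root and at 5.91, 7.41 and 2.72 CPM in C root, and alpha-expansin 3 (VIT_17s0000g06360) was at 14.6, 11.0 and 19.9 CPM against 4.63, 6.57 and 3.11 CPM. A pectinesterase (VIT_11s0016g03020) was lower, at 25.5, 28.7 and 12.6 CPM in WD root and 65.1, 54.6 and 56.4 CPM in C root. Of 44 tested root-list genes of wall loosening and synthesis, 10 were higher and 13 lower at an unadjusted p under 0.05, 4 were consistently higher and 3 lower, and replicate 3 carried 8.

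Of 17 tested root-list genes of suberin and wax synthesis, 9 were higher and 4 lower at an unadjusted p under 0.05. The study had chosen these 17 on the same libraries. Of 9 such genes tested from its other tables, 0 passed in either direction, with a median log2 difference of -0.01. The 17 held 3 consistently higher and 1 lower, beside 1.56% and 0.808% of all genes tested. CYP86A2 (VIT_07s0031g01660), a fatty acid hydroxylase, had the lowest spread of the 3 higher ones. It was at 3.84, 3.06 and 4.04 CPM in WD root and 1.12, 1.03 and 1.04 CPM in C root, a log2 difference of 1.77 ± 0.27. It was 1 of 20 genes called with all 12 libraries in a model of 4 groups (edgeR adjusted p = 0.0198), as were raffinose synthase, ABI1, AHP4, Spg1p and the nitrate transporter VIT_11s0016g05170. Of those 20 genes, 17 were consistent.

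Lignin genes showed no common direction. Of 39 tested root-list genes, 10 were higher and 5 lower at an unadjusted p under 0.05, and 3 were consistently higher and 3 lower. Cinnamoyl-CoA reductase (VIT_18s0122g00640), the first enzyme committed to monolignols, was at 57.3, 68.9 and 143 CPM in WD root and at 41.3, 22.9 and 11.7 CPM in C root. Laccase (VIT_18s0075g00540), which polymerises monolignols, was at 3.11, 4.35 and 12.0 CPM against 0.746, 2.06 and 0.389 CPM. Peroxidase 3 (VIT_16s0098g00820) was lower, at 11.4, 23.5 and 10.2 CPM in WD root and 41.2, 70.0 and 55.2 CPM in C root, as was another peroxidase (VIT_12s0055g01030) at 14.7, 13.9 and 4.12 CPM against 21.5, 41.3 and 86.5 CPM. The list's median log2 difference was 0.92 with all libraries, -0.29 without WD root replicate 3 and -0.72 without WD root replicate 1.

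Flavonoid genes of the root list were lower more often than higher. Of 26 tested, 4 were higher and 8 lower at an unadjusted p under 0.05. Consistent members were 3 higher, among them the O-methyltransferase VIT_10s0003g00470 given above, and 5 lower, and the median log2 difference was -0.74. Of 15 flavonoid genes tested from the study's other tables, 1 was higher and 0 lower at that limit, with a median of 0.05. Flavanone 3-hydroxylase (VIT_07s0005g03150), an early enzyme of flavonol and anthocyanin synthesis, was at 6.74, 3.97 and 4.75 CPM in WD root and at 15.8, 29.5 and 7.97 CPM in C root. A flavonoid 3-monooxygenase (VIT_00s0555g00020) was at 21.2, 25.7 and 19.0 CPM against 70.3, 115 and 30.6 CPM. Flavonol synthase (VIT_13s0047g00210) was at 22.1, 18.6 and 4.04 CPM against 34.7, 29.8 and 79.2 CPM.

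Photosynthesis genes were consistently higher in 7 of 15 tested root-list members, and 0 were lower by that rule. At an unadjusted p under 0.05, 9 were higher and 3 lower, and the 3 lower ones were 2 pyruvate kinase genes and NADP malate dehydrogenase (VIT_13s0019g05250), enzymes of carbon metabolism. PSBS (VIT_18s0001g02740), the photoprotection protein of photosystem II, was at 25.6, 12.8 and 17.5 CPM in WD root and at 2.02, 3.56 and 1.68 CPM in C root. PSAE (VIT_07s0005g04920), a subunit of photosystem I, was at 3.11, 2.69 and 3.70 CPM against 0.479, 0.703 and 0.453 CPM. PsbO (VIT_00s0207g00210), of the oxygen-evolving complex, was at 23.8, 21.8 and 61.1 CPM against 10, 2.81 and 2.27 CPM. Scaled together with shoot, PsbO averaged 33.0 CPM in WD root and 2710 in C shoot, so these levels in root were low beside green tissue. The summed level of the 42 green tissue genes overlapped between WD and C root, but as given above it does not measure green tissue in root. The part of green cells in the photosynthesis values was not tested. None of the 20 tested photosynthesis genes from the other tables passed an unadjusted p under 0.05 in either direction.

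Smaller groups held fewer consistent genes. Among pathogenesis-related proteins, osmotin (VIT_02s0025g04340) was at 271, 134 and 380 CPM in WD root and at 98.9, 72.5 and 123 CPM in C root, and a Bet v I allergen gene (VIT_01s0011g05190) was at 10.6, 9.56 and 15.7 CPM against 4.05, 4.13 and 5.31 CPM. Of 16 tested root-list members 3 were consistently higher and 1 lower. The glutathione S-transferase gene GSTU7 (VIT_06s0004g05670), of a detoxifying family, was at 16.4, 32.7 and 58.7 CPM in WD root. In C root it was at 10.1, 9.94 and 9.98 CPM, and it was 1 of 2 consistent genes among 16 root-list antioxidant genes. Of 16 tested root-list genes of histones and the cell cycle, 0 were consistent. At an unadjusted p under 0.05, 0 were higher and 3 lower, and the median log2 difference was -0.77. Of 23 such genes tested from the study's other tables, 2 were higher and 0 lower at that limit, with a median of 0.39.

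**Figure D5:**
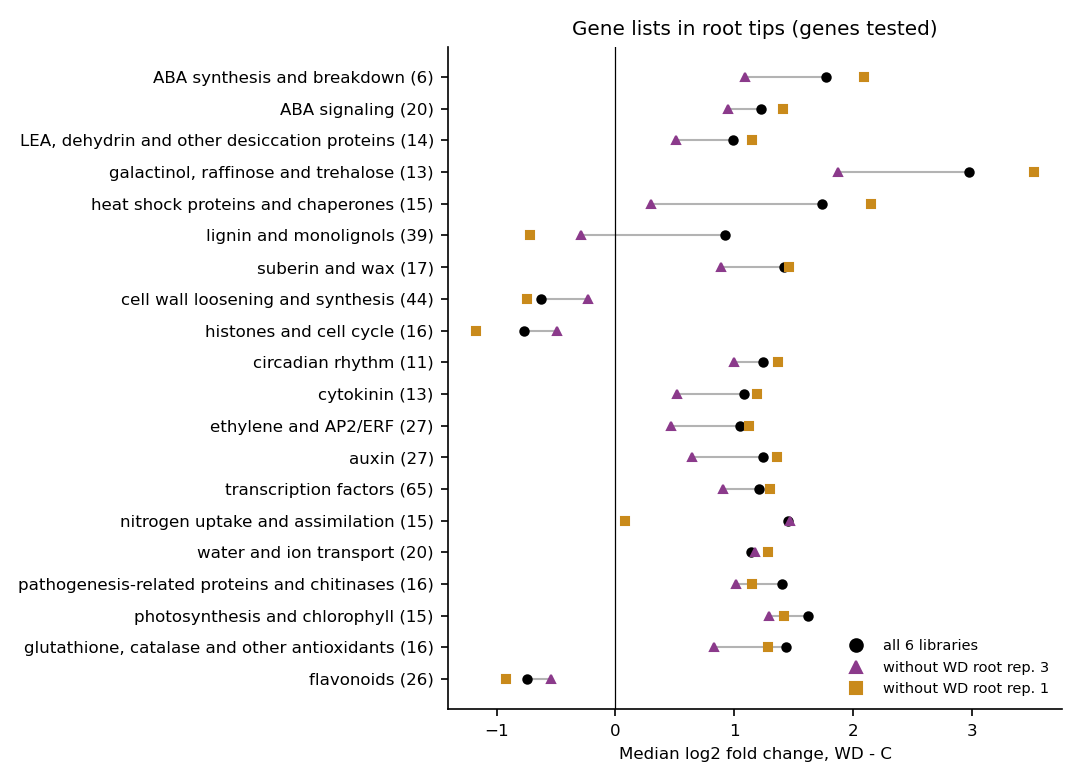
Median log2 fold change of WD over C root for the root-list members of 20 gene lists, with the number of genes tested in brackets, over all 6 libraries (circle) and without WD root replicate 3 (triangle) or WD root replicate 1 (square). The heat shock list moves from 1.74 to 0.30 without replicate 3, and the nitrogen list from 1.45 to 0.08 without replicate 1. The lists were chosen by the study on these libraries.

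Heat shock proteins were the list that rested most on WD root replicate 3. It carried 7 of the 15 tested root-list genes, and their log2 differences of 1.74 to 3.34 became -0.12 to 1.02 without it. Over the 7 genes the median level was 48.0 CPM in WD root replicate 3, 11.0 in replicate 2, 1.45 in replicate 1 and 1.92 to 3.89 in the C libraries. Only 2 genes of the list were consistent, among them heat shock protein 26a (VIT_16s0098g01060), a small plastid chaperone at 0.797, 1.07 and 3.49 CPM in WD root and 0.320, 0.234 and 0.389 CPM in C root. The other 33 heat shock genes, from the other tables, had a median log2 difference of 0.44, or 0.25 without replicate 3.

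Of the 38 annotated genes above the median level that replicate 3 carried upward, 4 moved most without it, and 0 such genes were carried downward. Sulfate transporter 3.5 (VIT_11s0016g04160) was at 48.6, 113 and 599 CPM in WD root and at 38.2, 34.7 and 14.6 CPM in C root. All 3 WD libraries were above the controls, so it was also consistent, but its log2 difference was 3.12 ± 0.96 with replicate 3 and 1.47 without. A CCCH zinc finger gene (VIT_11s0016g02790) was at 15.6, 46.9 and 161 CPM against 13.2, 23.7 and 7.58 CPM, with WD root replicate 1 inside the range of the controls.

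The precursor of a beta-glucanase (VIT_05s0020g02540), which cuts wall glucans, was at 22.5, 67.9 and 217 CPM in WD root and at 35.3, 59.5 and 23.6 CPM in C root. Sorbitol dehydrogenase (VIT_16s0100g00300), which converts sorbitol to fructose, was at 31.7, 81.6 and 232 CPM against 38.7, 49.7 and 11.7 CPM. Without replicate 3 their log2 differences of 1.38 ± 0.78 and 1.79 ± 0.80 were 0.20 and 0.76. Among the carried genes of large level, named after their values were seen, sucrose synthase (VIT_07s0005g00750), which splits sucrose in sink tissue, was at 656, 1070 and 2100 CPM in WD root and 718, 809 and 346 CPM in C root. Callose synthase (VIT_13s0156g00210) was at 364, 624 and 1430 CPM against 421, 476 and 249 CPM. In both genes WD root replicate 1 lay within the range of the controls, and replicate 2 lay above the highest of them by less than replicate 3.

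WD root replicate 1 carried other genes. It carried 5 of the 15 tested nitrogen genes and 8 of the 39 lignin genes, and the genes named here for it were chosen after their values were seen. Asparagine synthetase (VIT_06s0004g06830), which stores nitrogen as asparagine, was at 749, 57.2 and 200 CPM in WD root and at 106, 39.0 and 8.87 CPM in C root. Nitrilase 4 (VIT_02s0033g00800), which in plants detoxifies the cyanide by-product of ethylene synthesis, was at 77.7, 12.1 and 12.5 CPM against 9.96, 4.27 and 9.46 CPM. A peroxidase gene (VIT_01s0010g02000) was at 74.6, 0.967 and 2.23 CPM against 1.23, 1.41 and 1.81 CPM.

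A neighbouring nitrilase 4B gene (VIT_02s0033g00770) met the consistent rule but rested in size on the same library. It was at 57.9, 0.806 and 1.14 CPM in WD root and at 0.426, 0.188 and 0.324 CPM in C root, and without WD root replicate 1 its log2 difference of 5.97 ± 1.92 was 1.63. Another nitrilase 4B gene close by (VIT_02s0033g00790) was lower, at 2.97, 1.40 and 1.81 CPM against 4.47, 5.11 and 6.28 CPM.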

How the data were processed

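RNA-seq was made from both organs, and the 6 root libraries of V. riparia were compared here. The authors aligned reads with TopHat 2.0.8 and Bowtie2 2.1.0 to the PN40024 12X genome of V. vinifera, and the deposited read counts per gene model came from htseq-count, with RPKM values from Cufflinks (deposited per library). Between 69.1 and 72% of the reads in a root library lay on genes, and 5 lines that name no gene entered neither library sizes nor tests. Whether counting used strand is not given in the sources used here. The authors' own comparison, deposited as group values, fold changes and p-values, was not used, and of their supplementary tables of called genes only the annotations and the membership were. There were 0 columns with no sample.

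Genes were kept with filterByExpr of edgeR 4.0.16 in R 4.3.3, libraries were scaled by TMM, and WD root was tested against C root with the quasi-likelihood test and Benjamini-Hochberg adjustment. The SE is the absolute log2 fold change divided by the square root of F. Gene annotations and lists came from patterns over the study's supplementary tables, which annotate 2958 identifiers, and the members and lists were chosen with earlier results of these data known. Named genes were the 12 annotated consistent genes in each direction, at or above the median level of 4.07 on the log2(CPM + 0.5) scale, ranked by their smallest log2 difference over 7 fits, up to 4 in each direction carried by WD root replicate 3, all genes of ABA synthesis and breakdown, consistent list members and the RT-PCR genes. Positions are the loci in the deposited shoot RPKM table. CPM are scaled within root, except for tissue markers. Replicates combined 3 vines each. The code was tested on simulated data. Alternatives were DESeq2 1.42.0, limma 3.58.1 with voom weights or on log2(RPKM + 1) and log2(RPKM + 0.1), upper-quartile scaling, total counts, 2 other filters, a replicate block, all 12 libraries in a model, thinning to 14376065 reads, other thresholds and each library left out.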

Additional observations from a re-analysis of the deposited data

How the results depend on the processing

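The count of 0 genes called held under the edgeR alternatives within root and both limma fits on log2 RPKM, and became 441 with DESeq2, 221 with limma voom and quality weights and 20 with all 12 libraries in 1 model. Genes at an unadjusted p under 0.05, 1771 with all libraries, were 983 with the replicate block and 4134 with voom weights, and 1124 to 3300 with each library left out, the highest without WD root replicate 1. Genes without overlap, 2957, were 4097 to 7855 with a library left out, highest without WD root replicate 1 and next, at 5105, without C root replicate 2. Consistent genes, 463, were 176 on log2(RPKM + 1), 968 at 1.5-fold and 372 to 834 with a library left out, again highest without WD root replicate 1, and 278 of the 372 found without WD root replicate 3 were among the 463. Genes carried by WD root replicate 3, 221, were 651 with at least 1 read in the 6 root libraries, 457 with the replicate block, 89 on log2(RPKM + 1) and 499 where a remaining share of the log2 value under 0.667 was enough. The cause was not tested. Of the values of 108 named genes under alternatives, 1670 kept their side, 145 came under an adjusted p of 0.05 and 3 turned in sign, ABA3 (VIT_19s0027g01090) at -0.02 with voom weights and -0.21 without WD root replicate 3 (0.52 at most, without WD root replicate 1), and the reference gene eIF4A (VIT_09s0002g01760) at -0.01 with voom weights. The replicate block called 0 genes, and same-numbered libraries did not deviate together (correlations of 0.03, -0.12 and -0.36), so the numbers were not taken as pairs. The median of the lignin list also turned, to between -0.82 and -0.42, under 6 settings that kept every library. At the lowest levels named, under 1 CPM, a library held few reads, and such values are limited by depth.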

Other observations

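Some consistent genes outside the gene lists, chosen after their values were seen, were even across the WD libraries. Alkaline alpha galactosidase 2 (VIT_11s0016g05770), which releases galactose from raffinose sugars, was at 633, 577 and 1070 CPM in WD root and at 265, 212 and 138 CPM in C root. Inositol-1,4,5-trisphosphate 5-phosphatase (VIT_18s0157g00210), which ends an inositol phosphate signal, was at 167, 271 and 239 CPM against 69.7, 90.2 and 76.5 CPM. Homocysteine S-methyltransferase 3 (VIT_07s0151g00520), an enzyme of methionine synthesis, was at 106, 121 and 160 CPM against 50.7, 30.8 and 28.0 CPM. ERD4 (VIT_10s0003g04180), named for early response to dehydration, was at 161, 249 and 275 CPM against 80.2, 105 and 105 CPM.

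Of the genes chosen in the same way, consistently lower ones in WD root were carotenoid cleavage dioxygenase 7 (VIT_15s0021g02190), an enzyme of strigolactone synthesis, at 29.0, 16.4 and 19.1 CPM against 62.5, 99.5 and 35.0 CPM, and limonoid UDP-glucosyltransferase (VIT_03s0091g00040) at 54.5, 42.6 and 50.6 CPM against 114, 123 and 134 CPM. The resistance gene homologue MLA10 (VIT_08s0007g08420) was at 18.4, 17.3 and 17.5 CPM in WD root and 37.9, 39.0 and 42.4 CPM in C root, a log2 difference of -1.16 ± 0.14. Squalene monooxygenase 2 (VIT_03s0088g01140), an enzyme of sterol and triterpene synthesis, was at 1.38, 0.537 and 0.379 CPM against 5.81, 12.0 and 22.2 CPM, a log2 difference of -4.17 ± 0.69. The heavy metal-associated protein 20 gene (VIT_18s0001g04800) had the largest log2 difference of the 305 consistently higher genes, at 11.7, 42.1 and 121 CPM against 1.33, 0.985 and 0.389 CPM, a log2 difference of 5.98 ± 0.99, or 4.87 without WD root replicate 3.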
